A study of Saccharomyces cerevisiae with 4 samples.

Results

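RHO1 and the 8 genes that regulate the Rho1 GTPase were examined in a wsc1 mutant of the budding yeast Saccharomyces cerevisiae exposed to Congo Red. The 9 reading frames were chosen by name for their role, with no threshold on a value but with earlier results of these data known, out of 6207 reading frames in the deposited table. They are RHO1 (YPR165W), the exchange factor genes ROM1 (YGR070W), ROM2 (YLR371W) and TUS1 (YLR425W), the GTPase activator genes LRG1 (YDL240W), SAC7 (YDR389W), BAG7 (YOR134W) and BEM2 (YER155C), and the dissociation inhibitor gene RDI1 (YDL135C). All 9 row names matched the RefSeq gene table of the S288C assembly R64 under these symbols. Coordinates are left out because the build behind the array design is not stated.

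The treated cells were the wsc1 mutant in the BY4741 background, grown at 24 °C in rich medium and given Congo Red at 30 µg/ml, with collection at 4 h. The untreated cells were the other part of the same split culture, with the same mutation, medium and temperature and no dye. Each of the 4 arrays compared the RNA of both parts, and the dyes were swapped between them. The treated RNA carried Cy3 on arrays 1 and 3, and Cy5 on arrays 2 and 4. The 4 arrays came from 2 cultures, each with a dye swap, but the labels do not tie an array to a culture. They also do not state the kind of wsc1 mutation, and they differ from the design text in the length of growth before the split. WSC1 itself had no value on any array to check the mutation by, and cells with WSC1 intact are not analysed here.

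Rho1 is a small GTPase at the inner face of the plasma membrane that switches between a GTP-bound active form and a GDP-bound inactive form. Exchange factors load it with GTP, GTPase activating proteins speed the hydrolysis of that GTP, and the dissociation inhibitor takes the GDP-bound protein off the membrane. Active Rho1 is the regulatory subunit of glucan synthase and turns on the protein kinase Pkc1, which heads the MAP kinase cascade of the cell wall integrity pathway. Wsc1, missing or altered here, is a surface sensor that passes wall stress to Rho1 through Rom2. Congo Red interferes with the wall by binding its chitin and glucan chains.

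Values are log ratios as deposited, in log units, read as Congo Red over untreated. The sources give neither numerator nor log base, and the reading is likely rather than settled. Of 20 measured genes that the integrity pathway is known to induce, 19 were positive on each of the 4 arrays, and 0 of the 20 would have a single sign if arrays 2 and 4 were turned. That list set the direction and is no independent evidence of it. Every sign below would swap if the ratios ran the other way. A log ratio of bulk RNA also cannot tell a change in each cell from a change in the share of cells that carry the transcript.

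The table held values on all 4 arrays for 3080 reading frames (49.6%), and these were tested. Arrays of the same dye orientation resembled each other more than arrays of opposite orientation. Pearson r across these reading frames, which are not independent replicates, was 0.64 for arrays 1 and 3 and 0.71 for arrays 2 and 4. These are the pairs of the same orientation. For arrays of opposite orientation Pearson r ran from -0.05 to 0.33. Spearman rho was 0.64 and 0.69 for the same 2 pairs, and ran from -0.26 to 0.10 for arrays of opposite orientation. The 2 rows named for no reading frame give a view of non-yeast spots. The row 3XSSC, which carries the name of a salt buffer, ran from 0.10 to 0.49, and the row Arabidopsis from -0.27 to 0.67.

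Values were incomplete for the regulators. RHO1, ROM1, LRG1 and RDI1 had a value on every array, which is 4 of the 9 genes (44.4%, against 49.6% of all reading frames). TUS1 and SAC7 had values on arrays 3 and 4 alone, a pattern shared by 583 reading frames in all (9.39%). ROM2, BAG7 and BEM2 were empty on all 4 arrays, as were 1171 reading frames (18.9%). The exchange factor that links the sensors to Rho1, and 2 of the 4 GTPase activators, were therefore not measured here.

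RHO1, the GTPase itself, had log ratios of 0.77, 0.03, 0.77 and 0.19 on arrays 1 to 4. All 4 values lay above 0, as they did for 7.44% of tested reading frames, but those of arrays 1 and 3 stood well above those of arrays 2 and 4. On arrays 1 to 4, RHO1 exceeded 94.3, 71.0, 95.8 and 84.1% of the reading frames with a value. The mean was 0.44 ± 0.09 (moderated SE, n = 2 cultures), with a 95% interval of 0.21 to 0.68, or 1.36-fold if the log base is 2. RHO1 did not pass the threshold in limma after adjustment over all reading frames (adjusted p = 0.0889), though it did before adjustment. Of all tested reading frames, 177 (5.75%) had a larger mean.

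The call for RHO1 turned on the fit. Averaging arrays 1 with 2 and 3 with 4 gave culture means of 0.40 and 0.48, and averaging 1 with 4 and 2 with 3 gave 0.48 and 0.40. Under the second pairing alone RHO1 passed (limma, adjusted p = 0.0156), as did 25.6% of tested reading frames. When limma took the 4 arrays as replicates and included a dye term, RHO1 passed (adjusted p = 0.0244), among 10.4% of tested reading frames called in that fit. Without the dye term it did not pass (adjusted p = 0.278), in a fit that called 1.17% of tested reading frames. Limma with the dye term also called it when values on at least 3 arrays sufficed (adjusted p = 0.0385, 5.82% called) or at least 2 of opposite dye (adjusted p = 0.0446, 4.13% called). Of the fits on 3 arrays, RHO1 was called without array 1 (adjusted p = 0.0168, 12.2% called) and without array 3 (adjusted p = 0.00965, 26.7% called), but not without array 2 (adjusted p = 0.172). It was also not called without array 4 (adjusted p = 0.121). In each of these fits a gene's own spread comes from the 2 arrays of the orientation left whole. Its SE is moderated toward the variance pooled over all genes. Of the non-yeast rows, 3XSSC had 0.30, 0.49, 0.10 and 0.18 on arrays 1 to 4 with a mean of 0.27, and Arabidopsis had 0.67, -0.27, 0.16 and 0.01 with a mean of 0.14. Unlike RHO1, 3XSSC was highest on array 2 and lowest on array 3. Arabidopsis had both Cy3 arrays above both Cy5 arrays, as RHO1 did, but took both signs.

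**Figure D1:**
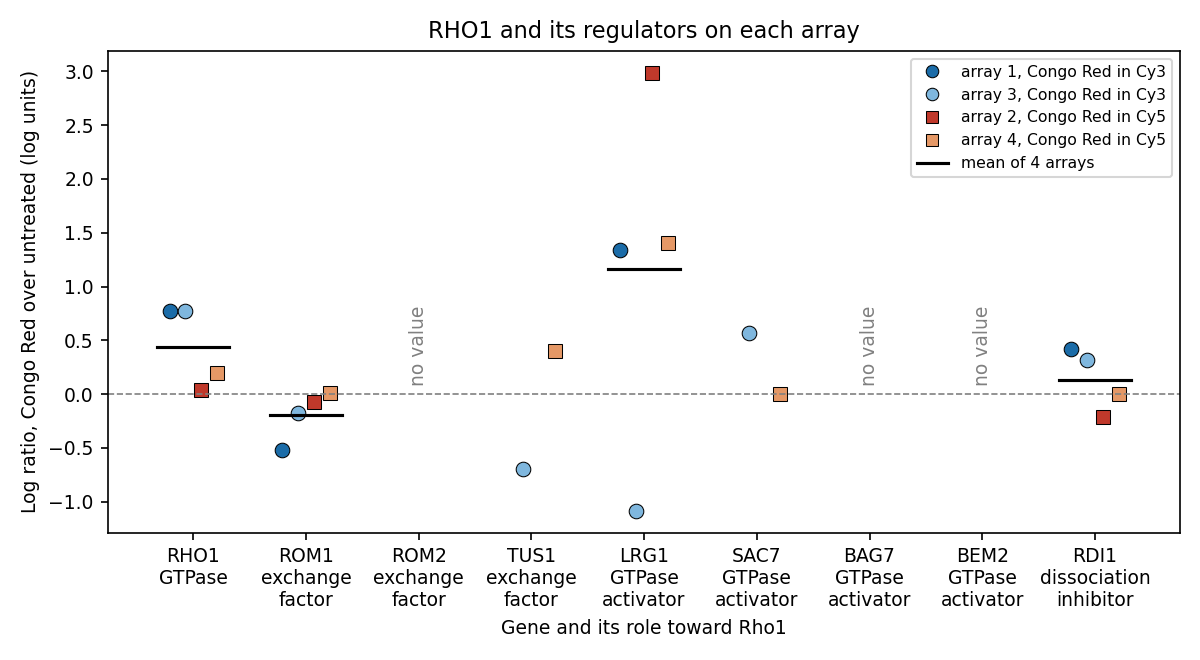
Log ratio of Congo Red over untreated (log units) for each of the 9 genes on each array, with circles for arrays with Congo Red RNA in Cy3, squares for arrays with it in Cy5, and a bar at the mean where all 4 arrays had a value. RHO1 and RDI1 were higher on both Cy3 arrays, ROM1 and LRG1 on both Cy5 arrays, and ROM2, BAG7 and BEM2 had no value.

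Among the exchange factors, ROM1, the paralog of ROM2 with a lesser role, had log ratios of -0.52, -0.08, -0.18 and 0.01 on arrays 1 to 4. Array 1 had the lowest value, and the other 3 lay nearer to 0. The mean was -0.19 ± 0.10 (95% interval -0.46 to 0.08, n = 2 cultures), and ROM1 was not called (limma, adjusted p = 0.279). The array medians ran from -0.14 on array 2 to -0.08 on array 4, and centring each array on its median left ROM1 at -0.07.

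TUS1, an exchange factor that acts at the bud neck during cytokinesis, had -0.70 on array 3 and 0.41 on array 4. These opposite values placed it above 7.07% of reading frames on array 3 and above 93.4% on array 4. A fit that admitted reading frames with a value in both dye orientations gave TUS1 a mean of -0.15 ± 0.13 (limma, adjusted p = 0.467). In that fit the SE of a gene with 2 values comes entirely from the variance pooled over all genes.

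Of the GTPase activators, LRG1, which restrains Rho1 in the control of glucan synthase, had the most uneven values. Its log ratios were 1.34, 2.99, -1.08 and 1.41 on arrays 1 to 4. On 3 arrays it lay above 98.9% or more of the reading frames, and on array 3 it lay above 1.36% of them. Of the 3080 tested reading frames, 3 had a larger SD over the arrays than LRG1, whose SD was 1.68. The mean of 1.16 ± 0.48 (95% interval -0.11 to 2.43, n = 2 cultures) was exceeded by 21 reading frames, yet LRG1 was not called (limma, adjusted p = 0.207).

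What LRG1 showed depended on which arrays share a culture. With arrays 1 and 2 as a culture, the culture means were 2.16 and 0.16. With arrays 1 and 4 as a culture they were 1.37 and 0.95, the SE was 0.11 and LRG1 passed the threshold (limma, adjusted p = 0.00532), as did 25.6% of tested reading frames. With array 3 left out, the dye-term fit in limma gave 1.77 and a call (adjusted p = 2.12e-05), as for 26.7% of tested reading frames. In that fit array 1 alone has Congo Red in Cy3, so the gene's own spread comes from arrays 2 and 4 only. The SE of 0.21 is also moderated toward the variance pooled over all genes, and it leaves out the disagreement of arrays 1 and 3. Without array 1 that fit gave 0.56 (adjusted p = 0.0935), and without array 2 it gave 0.77 (adjusted p = 0.501). The labels and the table hold no spot quality, so the quality of the LRG1 spots, the 2.99 on array 2 and the -1.08 on array 3 among them, was not tested.

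The profile of LRG1 was not its own. The 3 reading frames nearest to it over the 4 arrays, looked up after its values were seen, were GEM1, SIN3 and FAP1. GEM1, a GTPase gene of the mitochondrial outer membrane, had 1.29, 2.50, -1.25 and 1.32 on arrays 1 to 4. SIN3, coding for a subunit of histone deacetylase complexes, had 1.28, 2.53, -0.83 and 1.36, and FAP1 had 1.30, 2.34, -1.09 and 1.45. Like LRG1, each was highest on array 2 and below 0 on array 3 alone. Such a likeness follows largely from picking them for closeness on the same 4 values. Values above 0.5 on arrays 1, 2 and 4 with a value below -0.5 on array 3 were found for 27 tested reading frames, LRG1 included (0.877%).

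The gene next to LRG1 on the chromosome did not share its values. YDL241W, the reading frame before it in the R64 gene order, had -0.63, -0.12, -0.41 and 0.09 on arrays 1 to 4. ADY3, the reading frame after it, had a value on array 4 alone, at -0.17. Likewise MRP2, the reading frame after RHO1 and a mitochondrial ribosomal protein gene, ran from -0.54 to -0.13 and lay below 0 on every array, where RHO1 lay above 0. MRP2 was not called either, at -0.34 (limma, adjusted p = 0.14).

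SAC7, a GTPase activator that limits signalling from Rho1 to Pkc1, had 0.57 on array 3 and 0.00 on array 4. It exceeded 92.5% of reading frames on array 3 and 63.4% on array 4. The fit that admitted such genes gave 0.28 ± 0.13 (limma, adjusted p = 0.229). BAG7, the paralog of SAC7, and BEM2, an activator with a part in bud growth and cell shape, had no value.

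RDI1, the dissociation inhibitor, had log ratios of 0.42, -0.21, 0.31 and 0.00 on arrays 1 to 4. As for RHO1, both arrays with Congo Red in Cy3 lay above both arrays with Congo Red in Cy5. The mean was 0.13 ± 0.09 (95% interval -0.10 to 0.36, n = 2 cultures), and RDI1 was not called (limma, adjusted p = 0.368).

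Counted together, 0 of the 4 tested genes passed the threshold in either direction, where 80 of all 3080 tested reading frames did, which is a share of 2.6 percent (1.53% higher and 1.07% lower). The counts were 47 higher and 33 lower, against 30 and 2 after centring each array and 36 and 6 after scaling as well. At an unadjusted p below 0.05, RHO1 alone passed, against 26.2% of tested reading frames. Means ran from -0.19 to 1.16 with a median of 0.29, against a median of -0.10 over all tested reading frames. With 4 genes tested, a count of 0 is no more than that background would give. The intervals still allow changes of the size of RHO1 in ROM1 downward and, for LRG1, anything from a small decrease to more than 2 log units upward.

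The dye orientation divided the values of all 4 tested genes. RHO1 had a mean of 0.77 with Congo Red in Cy3 and 0.11 with it in Cy5, and RDI1 had 0.37 and -0.10. In ROM1 and LRG1 the order was the other way round. ROM1 averaged -0.35 with Congo Red in Cy3 and -0.03 with it in Cy5, and LRG1 averaged 0.13 and 2.20. Complete separation by orientation is common on these arrays, at 66.4% of tested reading frames, so it is not particular to these genes. It put the Cy3 arrays higher in 983 tested reading frames and the Cy5 arrays higher in 1062.

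Limma with a dye term also gave the size of the dye effect for each gene. It is given as the difference between orientations, Congo Red in Cy5 minus in Cy3, divided by 2. RHO1 was the member called for it, at -0.33 ± 0.07 (adjusted p = 0.0404), where 16 percent of tested reading frames were called. RDI1 was at -0.23 ± 0.08 (adjusted p = 0.0938), ROM1 at 0.16 ± 0.09 (adjusted p = 0.238) and LRG1 at 1.04 ± 0.44 (adjusted p = 0.157). The dye effect on RHO1 was thus nearly as large as its Congo Red mean of 0.44. The Congo Red mean holds 2 arrays of each orientation, so a constant dye effect cancels in it.

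**Figure D2:**
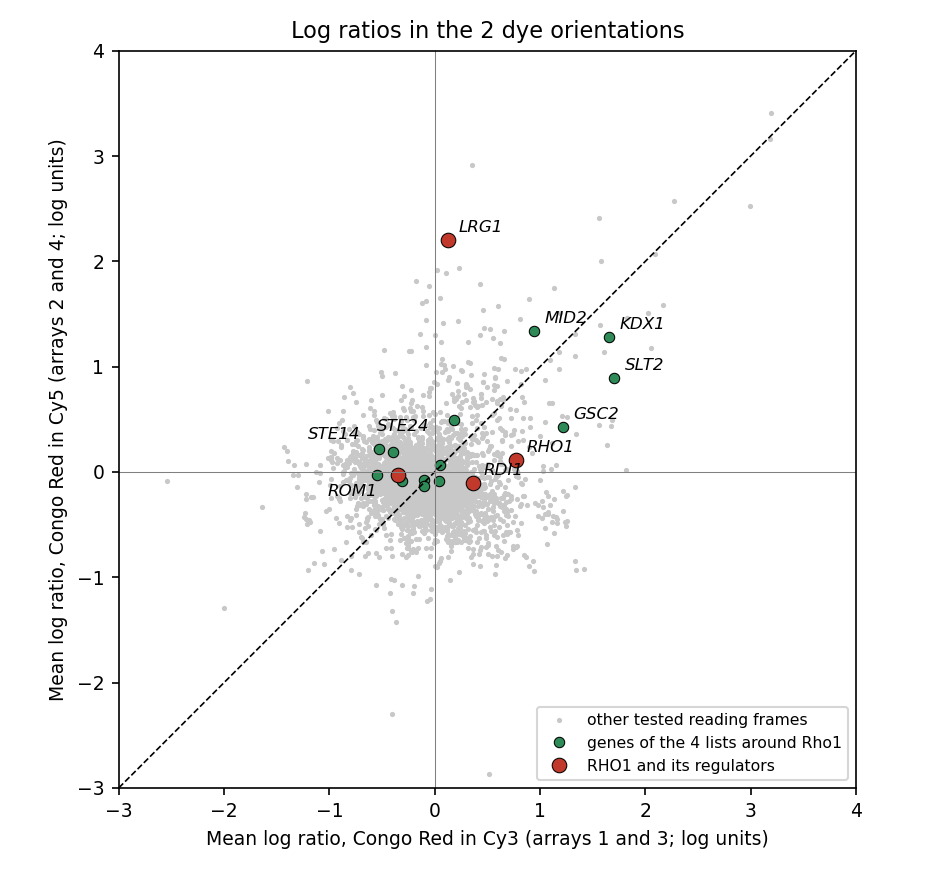
Mean log ratio with Congo Red RNA in Cy3 (horizontal axis, arrays 1 and 3) against the mean with it in Cy5 (vertical axis, arrays 2 and 4), in log units, for the 3080 tested reading frames, with equal values on the dashed line. RHO1, at 0.77 and 0.11, and RDI1, at 0.37 and -0.10, lie below the line, while LRG1, at 0.13 and 2.20, lies far above it.

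RHO1 and RDI1 kept a near constant distance. RHO1 exceeded RDI1 by 0.35, 0.25, 0.45 and 0.19 on arrays 1 to 4, a mean difference of 0.31 with an SD of 0.12. That likeness was picked out after the values were seen. It is not rare, since 118 of the other 3079 tested reading frames (3.83%) had a smaller SD of their difference from RHO1, and the 4 values share the dye orientation described above. ROM1 differed from RHO1 by amounts with an SD of 0.58 and LRG1 by amounts with an SD of 1.99.

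The 3 reading frames nearest to RHO1 by Euclidean distance over the 4 arrays were EMC4, NUG1 and RPN7. EMC4, coding for a subunit of a membrane protein insertion complex of the endoplasmic reticulum, was at a distance of 0.20 and had 0.77, 0.06, 0.74 and -0.01 on arrays 1 to 4. NUG1, a GTPase gene of ribosome assembly, was at 0.24, and RPN7, coding for a subunit of the proteasome lid, at 0.32. Their means were 0.39, 0.47 and 0.36, and limma called 0 of these 3 (adjusted p = 0.106, 0.0879 and 0.119). All 3 had the same division by dye orientation as RHO1, which follows largely from picking them for closeness on the same 4 values. RDI1 was the nearest member, at rank 119.

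**Figure D3:**
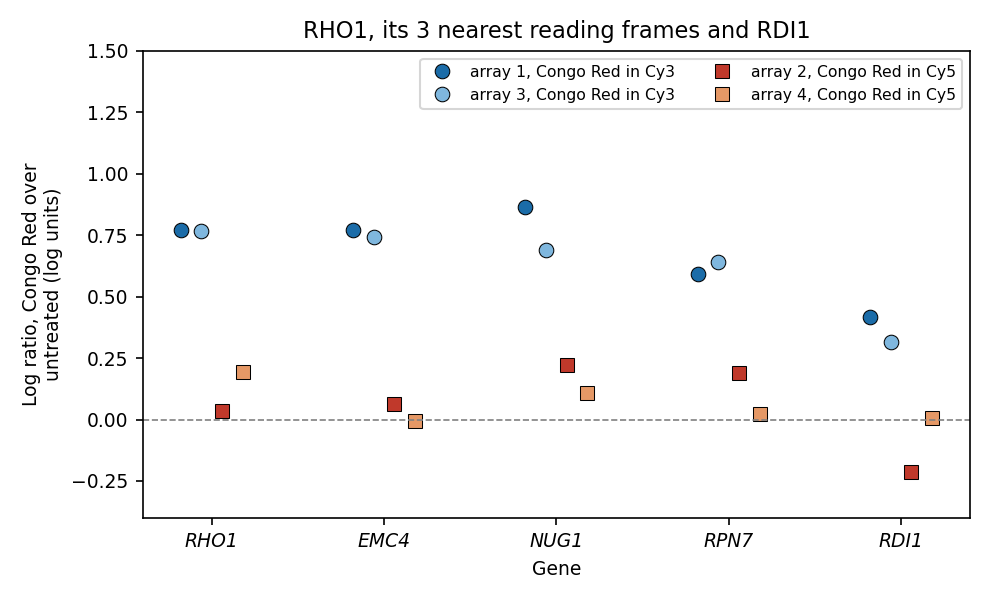
Log ratio of Congo Red over untreated (log units) on each array for RHO1, the 3 reading frames nearest to it over the 4 arrays and RDI1, with circles for Congo Red RNA in Cy3 and squares for Cy5. In each of these 5 genes both circles lie above both squares, and the 3 nearest were picked on these same values.

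Genes with a place around Rho1 were read from 6 lists of 39 genes, of which 22 were tested. Of these 22, 4 rose, 0 fell and 18 were not called, against 2.6 percent called of all tested reading frames. The 4 are also among the integrity targets used to read the direction, so their sign is not independent. The median of the 22 was -0.0031, beside the median of all tested reading frames at -0.10. In the dye-term fit the 4 calls were lost without array 2, and all but that of MID2 without array 4. Fewer of all tested reading frames were called in those fits as well. Without array 3 more were called, in these lists and over all tested reading frames alike.

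Upstream, the sensor and lipid kinase list had 2 tested genes of 7. MID2, coding for a surface sensor that acts beside Wsc1, had 0.92, 1.46, 0.96 and 1.21 on arrays 1 to 4. These values lay close together and all far above 0, with both Cy5 arrays above both Cy3 arrays. MID2 rose by 1.14 ± 0.09 (limma, adjusted p = 0.0186). MSS4, coding for the kinase that makes the lipid that draws Rom2 to the membrane, was at -0.09 and not called (adjusted p = 0.53). WSC2, another sensor gene, had -0.51 on array 3 and 0.56 on array 4, MTL1 had 0.82 on array 4 alone, and WSC3 was empty.

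All 6 listed effectors of Rho1 were tested, and 1 rose. GSC2, the glucan synthase gene used under stress, had 1.00, 0.67, 1.44 and 0.18 on arrays 1 to 4, with the Cy3 arrays above the Cy5 arrays as in RHO1. It rose by 0.82 ± 0.12 (limma, adjusted p = 0.0476) and was not called after scaling (adjusted p = 0.051) or on 4 arrays without a dye term (adjusted p = 0.163). FKS1, the glucan synthase gene of vegetative growth, had 0.38, 0.60, -0.01 and 0.39, with both Cy5 arrays above both Cy3 arrays. Its mean was 0.34 ± 0.11, with no call (limma, adjusted p = 0.171). PKC1, the kinase gene, was at -0.20 ± 0.10 (adjusted p = 0.254) and the formin gene BNI1 at -0.29 ± 0.11 (adjusted p = 0.199).

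Below Pkc1, 3 of 8 listed genes were tested and 2 rose. SLT2, the MAP kinase gene, had 1.34, 0.99, 2.07 and 0.79 on arrays 1 to 4, with both Cy3 arrays above both Cy5 arrays. It rose by 1.30 ± 0.12 (limma, adjusted p = 0.0198). On 4 arrays without a dye term SLT2 was not called (adjusted p = 0.0606). KDX1, coding for a kinase-like protein related to Slt2, had 1.36, 1.31, 1.95 and 1.26, and rose by 1.47 ± 0.11 (limma, adjusted p = 0.0167) with array 3 apart from the rest. BCK1, the gene of the first kinase of the cascade, was at 0.06 and not called (adjusted p = 0.682). The MAP kinase kinase genes MKK1 and MKK2 had a value on array 4 alone, at -0.04 for MKK1 and -0.03 for MKK2.

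**Figure D4:**
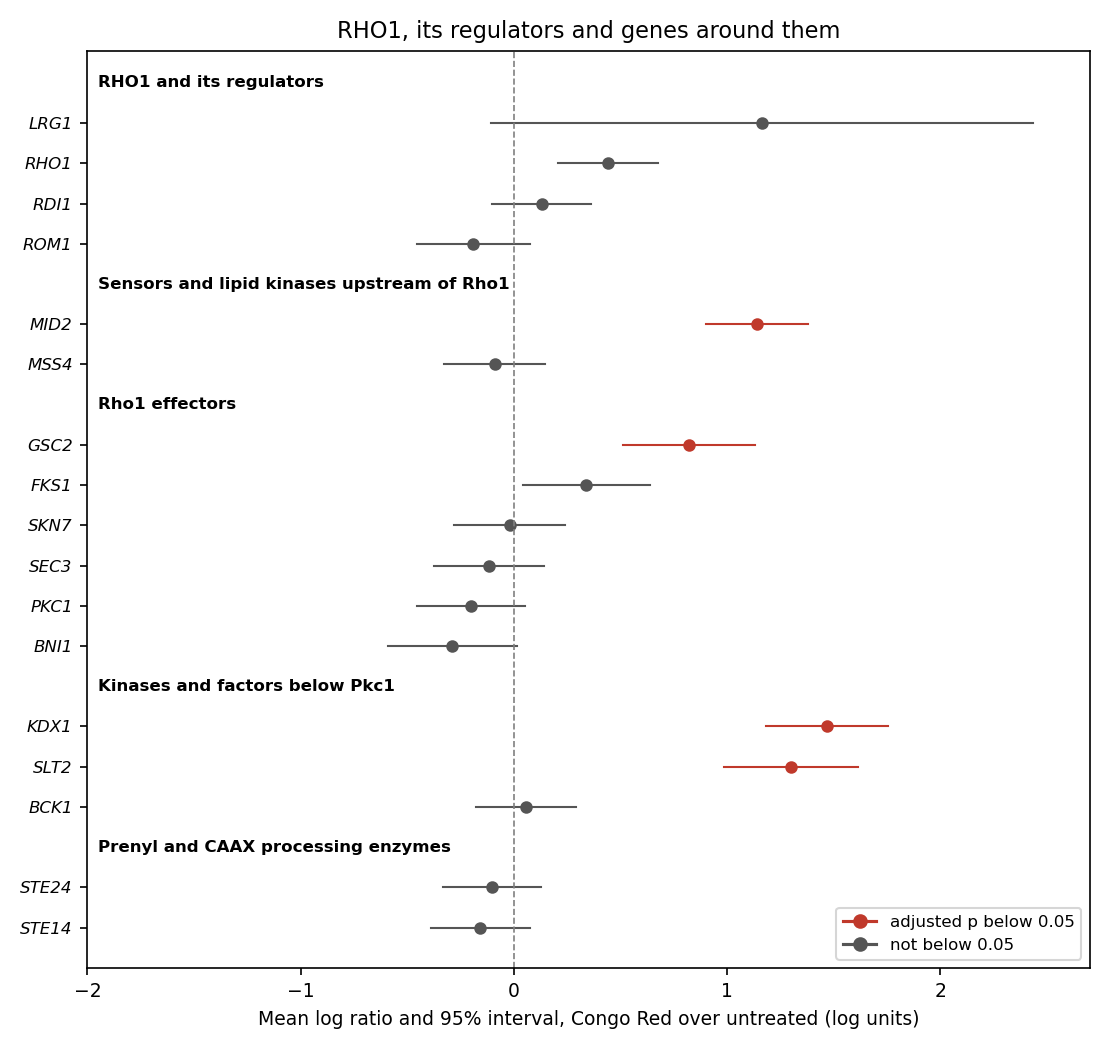
Mean log ratio of Congo Red over untreated with its 95% interval (log units) for the 4 tested genes of Rho1 and its regulators and the 13 tested genes of the 4 lists described here, in red where the adjusted p lay below 0.05. MID2, GSC2, KDX1 and SLT2 are the 4 in red, and the interval of LRG1, from -0.11 to 2.43, is the widest drawn.

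Of the 5 listed enzymes that prenylate proteins such as Rho1 or process their prenylated end, STE14 and STE24 were tested. They had means of -0.16 and -0.10 and were not called (limma, adjusted p = 0.296 and 0.466). Both were called for dye, at 0.37 and 0.29 (adjusted p = 0.0342 and 0.0457).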

How the data were processed

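Transcripts were measured on 4 two-channel arrays, with Cy5- and Cy3-labelled cDNA per the labels. The deposited table holds log ratios, treated as log2 where a fold is given. No source used here gives the authors' log base, numerator, background correction or normalization. Signal over background cannot be seen in ratios, and array number limits the precision. Values were used as deposited. For each gene the 2 arrays of a culture, of opposite dye, were averaged and tested with limma 3.58.1 (lmFit, eBayes) in R 4.3.3 under both possible pairings, keeping the larger p and SE. P-values were adjusted by Benjamini-Hochberg over 3080 reading frames, with a threshold of 0.05. Nothing states that cultures were independent beyond their separation. The p-values rest on the spread between the 2 culture means, moderated toward the variance pooled over all tested reading frames. Alternatives changed the pairing, the dye term, centring, scaling, the filter on empty cells, the sign of arrays 2 and 4, or left out an array. The fits were run on simulated data with independent errors on 4 arrays and no culture effect. Such data could not check the pairing or the spread between cultures. The members, gene lists and rules were chosen with earlier results of these data known. Named were all members, list genes past the threshold or otherwise of largest size, some list genes with empty cells, genes of context (SLT2, MID2, PKC1) and the 3 nearest to RHO1. BCK1, GEM1, SIN3, FAP1, MRP2, ADY3 and YDL241W were named after their values were seen. The genes of 2 of the 6 lists are counted but not reported here. No sequences are shown.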

Additional observations from a re-analysis of the deposited data

Results flagged for a closer look

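By Dixon's ratio of the largest end gap to the range, KDX1 was the gene flagged among the 26 tested here. Its value of 1.95 on array 3 stood apart from 1.26 to 1.36 on arrays 1, 2 and 4, with a gap of 0.852 of its range, above Dixon's 95% critical value for 4 values. Chance flags about 1 in 20 such groups if the 4 values are of 1 kind. That is in doubt here, since 66.4% of tested reading frames split completely by dye orientation. LRG1, with values from -1.08 to 2.99, had a ratio of 0.595 and was not flagged, as a wide range lowers the ratio. Without array 3, the limma fit with a dye term gave KDX1 1.32, against a mean of 1.47 on all 4 arrays. Leaving out array 1, 2 or 4 gave 1.61, 1.46 and 1.48.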

How the results depend on the processing

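Over 13 alternatives RHO1 kept its direction, at 0.33 to 0.56, RDI1 at 0.08 to 0.25 and ROM1 at -0.28 to -0.04, and RDI1 and ROM1 were never called. A change of pairing, dye term or filter alone leaves the mean of the 4 arrays as it is, so the direction could not change there. RHO1 was positive on all 4 arrays, so leaving out an array could not turn it either. With arrays 2 and 4 turned, each estimate is by arithmetic the dye effect with its sign reversed. That gave RHO1 its lowest value of 0.33 and reversed LRG1 to -1.04 (limma, adjusted p = 0.231). RHO1, at 0.44, was called on 4 arrays with a dye term, under the pairing of 1 with 4, and with values on at least 3 or at least 2 arrays, and LRG1, at 1.16, under the same pairing. Members called were thus 1, 2, 1 and 1 in these settings, where 10.4, 25.6, 5.82 and 4.13% of all tested reading frames were called. The main fit called 0 members and 2.6% of all tested reading frames. Leaving out each array gave RHO1 0.40 to 0.48, LRG1 0.56 to 1.77, RDI1 0.08 to 0.18 and ROM1 -0.28 to -0.11. RHO1 was called without array 1 or 3 and not without array 2 or 4.

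Genes called over all reading frames, 80 with 47 higher and 33 lower, were 320 with a dye term (121 and 199), 36 without (28 and 8), 787 under the pairing of 1 with 4 (255 and 532), 32 centred (30 and 2), 42 centred and scaled (36 and 6), 214 and 177 with values on at least 3 and 2 arrays, 0 with arrays 2 and 4 turned (limma), and 13 to 823 with an array left out. Pathway genes called, 4 here, were 2 without a dye term (KDX1 and MID2), 7 under the pairing of 1 with 4, and 0 turned. The pairing of 1 with 4 called 25.6% of all tested reading frames. With an array left out the pathway calls changed, as did those over all reading frames. For dye, 1 member was called, 0 after scaling and 0 with values on at least 3 arrays, and 0 to 1 with an array left out, when the genes called were 0 to 661 against 493. The member called for dye was LRG1 without array 1 and RHO1 without array 3.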
